A study of Mus musculus with 12 samples.

Results

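Villi are the finger-like folds of the small intestine that carry its mature absorptive cells, and their RNA was measured here at 3 points along the length of the mouse gut, ileum, jejunum and duodenum. The villus libraries were chosen by their labels and are 3 of the 12 libraries of the series, with 1 library per origin and no replicates. The others are 6 crypt libraries, 2 per origin, and 3 libraries of organoids, epithelial cultures grown from intestine and sampled after 12 weeks. Villi and crypts were freshly isolated, and the labels give no strain, age, sex or number of animals. The series asks, by its title, whether stem cells of the adult small intestine hold a programme specific to their location. Because each villus origin is a single library, a difference between origins has no replicate check, no p-value is given for it, and origin and preparation cannot be told apart.

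Villi are covered mainly by enterocytes, which digest and absorb food with enzymes and transporters of their brush border, and by mucus-secreting goblet cells. As general background, the duodenum is known for the uptake of iron, calcium and folate, duodenum and jejunum for most of the digestion and uptake of sugar and fat, and the ileum for the recovery of bile acids and vitamin B12. Crypts, the pits between villi, hold stem cells and antimicrobial Paneth cells.

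Values are RPKM, read numbers divided by exon length and by library size, and ratios are differences of log2(RPKM + 1), a scale on which the change of low genes is understated. The implied library totals were 12118586 reads in ileal, 12804038 in jejunal and 13094383 in duodenal villi, so that 1 read in a 2-kb gene was worth 0.0413, 0.0391 and 0.0382 RPKM in ileal, jejunal and duodenal villi. Crypt libraries were shallower, with 5268480 to 10275855 reads. The 10 genes with most reads took 11.2% of the reads in genes in ileal villi, 12.3% in jejunal villi and 22.4% in duodenal villi. Counting intervals below are at 95% and cover counting error only.

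The labels were checked against defining genes first. The microvillus list holds 12 genes, most of which build the brush border, with Krt20 and M6prbp1 (now Plin3) as exceptions. It summed to 5573 RPKM in ileal, 4774 in jejunal and 4653 in duodenal villi, against 579 to 2436 RPKM in the 6 crypt libraries. Stem cell genes summed to 34.8, 26 and 11.4 RPKM in ileal, jejunal and duodenal villi, against 103 to 1182 RPKM in crypts, and Lgr5, the receptor that marks stem cells, was at 0.193, 0.133 and 0.0973 RPKM. Regional markers also stood where the labels put them. Fabp6, the bile acid-binding protein of the ileum, was at 24599 RPKM in ileal villi, against 18.4 in jejunal and 29.6 in duodenal villi. Mep1a, a subunit of the brush border protease meprin, was at 752, 161 and 67.3 RPKM in ileal, jejunal and duodenal villi. Fabp1, a fatty acid carrier of the proximal gut and liver, was at 137 RPKM in ileal, 1449 in jejunal and 2900 in duodenal villi.

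RNA of cells other than villus epithelium differed between the 3 preparations. T lymphocyte genes summed to 115 RPKM in ileal, 225 in jejunal and 533 in duodenal villi, against 2.31 to 10.4 in crypts. T cells that live within the villus epithelium are a normal part of it. Paneth cell genes ran the other way, with 2605 RPKM in ileal, 1198 in jejunal and 243 in duodenal villi, and every villus library lay below the crypt range of 7014 to 145918. B and plasma cell genes summed to 41.1 RPKM in ileal villi, against 10.7 in jejunal and 9.67 in duodenal villi, and smooth muscle genes to 125, 91.4 and 78.4 RPKM. Of 7 tested smooth muscle genes 5 were 2-fold or more higher in ileal than in duodenal villi, against 10.7% of all genes, with a median log2 ratio of 1.28. When scaled to epithelial genes, as described below, 1 was higher and 1 lower. The kinase gene Mylk ran the other way, at 33.8, 41.2 and 49.2 RPKM. Haemoglobin and other red blood cell genes summed to 39.0, 31.0 and 11.6 RPKM in ileal, jejunal and duodenal villi, and myeloid genes to 52.7, 48.9 and 33.6. Signals of fibroblasts, endothelium, nerve, pancreas and stomach were low in all 3, with sums between 0.486 and 14.5 RPKM, and 4 of 13 pancreatic and 5 of 9 stomach genes were at 0 in every villus library. Fewer cells of a type and less RNA per cell cannot be told apart in such bulk samples. The part these cells play in the ratios below was not tested.

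**Figure D1:**
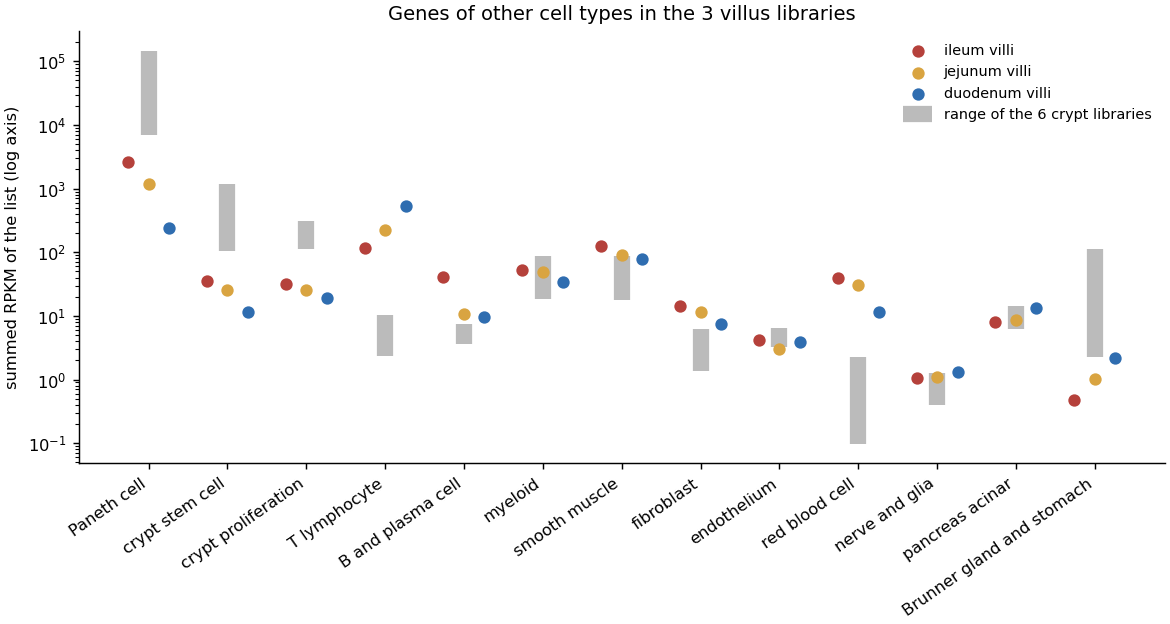
Summed RPKM (log axis) of genes of other cell types in ileal, jejunal and duodenal villi (points, 1 library each), with grey bars for the range of the 6 crypt libraries. The T lymphocyte sum was 115, 225 and 533 RPKM in ileal, jejunal and duodenal villi and the Paneth cell sum 2605, 1198 and 243 RPKM.

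Ileal and duodenal villi were the most different pair. Of 9574 genes with at least 1 RPKM in 1 of the villus libraries, 1341 (14.0%) differed by 2-fold or more on the log2(RPKM + 1) scale. Of these 1022 (10.7% of the genes tested) were higher and 319 (3.33%) lower in ileal villi. Between jejunal and duodenal villi 451 genes (4.71%) differed by that much, 311 (3.25%) higher and 140 (1.46%) lower in jejunum. Between ileal and jejunal villi it was 457 (4.77%), 327 (3.42%) higher and 130 (1.36%) lower in ileum. At 4-fold 241 genes (2.52%) differed between ileal and duodenal villi, 169 (1.77%) higher and 72 (0.752%) lower in ileum. Between jejunal and duodenal villi 42 genes (0.439%) did, 27 (0.282%) higher and 15 (0.157%) lower in jejunum, and between ileal and jejunal villi 84 (0.877%) did, 56 (0.585%) higher and 28 (0.292%) lower in ileum. Across genes the log2 values correlated with r = 0.928 for ileal and duodenal, 0.970 for jejunal and duodenal and 0.967 for ileal and jejunal villi, where genes are not independent replicates.

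The excess of higher genes depended on the scale. The median gene was 0.29 higher in ileal than in duodenal villi, 0.16 higher in jejunal than in duodenal villi and 0.13 higher in ileal than in jejunal villi. Centred on this median, 533 genes were higher and 539 lower in ileal than in duodenal villi, 190 higher and 208 lower in jejunal than in duodenal villi, and 252 higher and 176 lower in ileal than in jejunal villi. Centred on 12 epithelial genes, Krt19 among them, whose medians were 0.52, 0.14 and 0.44, the same 3 pairs had 362 higher and 896 lower, 204 and 199, and 135 and 435. With equal RPKM sums they had 964 and 313, 647 and 76, and 217 and 220. Counting only reads outside the 5 abundant genes Apoa1, Apoa4, Apoc2, Apoc3 and Fabp6 gave 657 and 458, 285 and 161, and 228 and 188. Medians of gene groups are therefore read against 0.29 for ileum over duodenum and 0.16 for jejunum over duodenum. Counts of group members are read against the share of all genes. That was 10.7% higher and 3.33% lower for ileum over duodenum, and 3.25% and 1.46% for jejunum over duodenum.

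**Figure D2:**
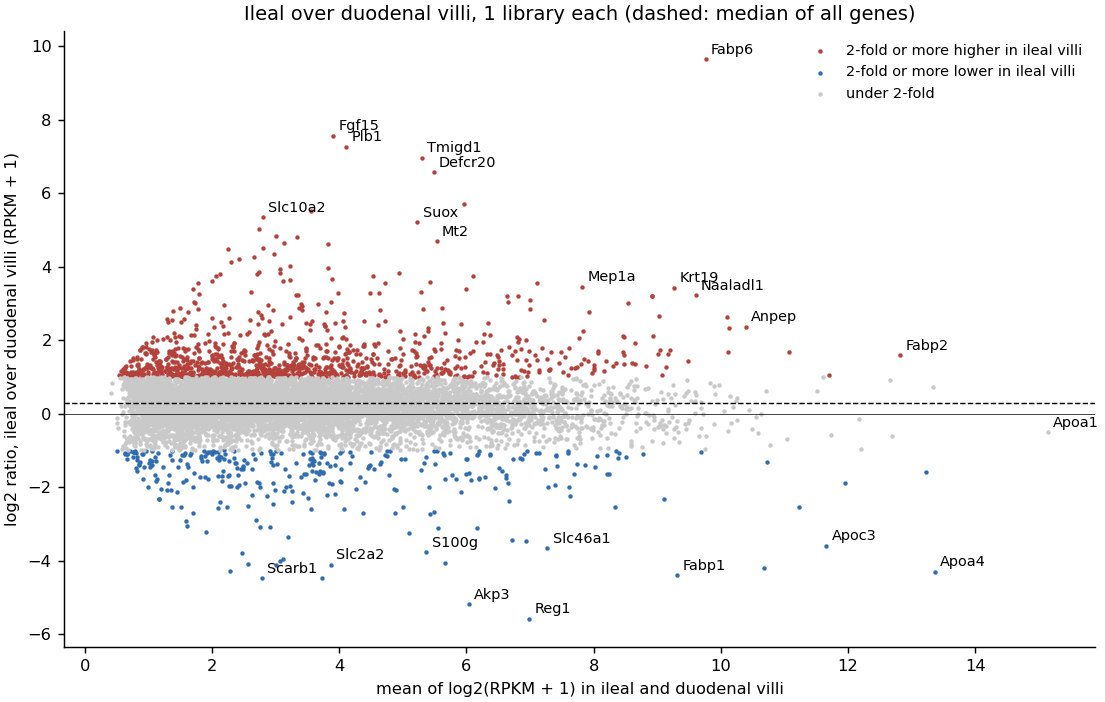
The log2 ratio of ileal over duodenal villi (RPKM + 1) against the mean log2(RPKM + 1) of both libraries, 1 point per gene, with genes 2-fold or more higher (red) or lower (blue) in ileal villi. The dashed line is the median gene at 0.29, with Fabp6 at the top (9.65) and Reg1 at the bottom (-5.58).

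Among the functional gene lists, that of bile acids had the highest median ratio of ileum over duodenum. Paneth cell genes, counted with the other cell types, had a higher median of 3.35. Enterocytes of the ileum take bile acids up through Slc10a2, bind them to Fabp6 in the cell and export them through the paired transporter Osta and Ostb (now Slc51a and Slc51b), while the bile acid receptor Nr1h4 switches on the genes of the binding protein and the exporter and the hormone gene Fgf15, which signals to the liver. Of 9 tested genes of this list, 6 were 2-fold or more higher in ileal than in duodenal villi and 0 lower, with a median log2 ratio of 2.52. Jejunal villi had 1 higher and 0 lower, with a median of 0.02, which was below 0 when scaled to the median gene, to the epithelial genes or to reads outside the abundant genes. Fabp6 (mm9 chromosome 11, 43409613 to 43415012, reverse strand) took 115368 reads in ileal villi, 91 in jejunal and 150 in duodenal villi. This was 1.26% of all reads in genes in ileal villi (Wilson interval 1.25% to 1.26%), against 0.00105% in jejunal and 0.00157% in duodenal villi, and its log2 ratio of ileum over duodenum was 9.65. The step lay between jejunum and ileum, since jejunal villi were at or below the duodenal value.

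Slc10a2 followed the same course, with 43.5 RPKM in ileal villi and 3 reads in jejunal and 2 reads in duodenal villi (0.144 and 0.0938 RPKM). The counting interval of its ileal over duodenal log2 read ratio, taken without the added 1, ran from 7.0 to 11.90. Fgf15 was graded instead, at 204 RPKM in ileal, 12.8 in jejunal and 0.0845 in duodenal villi, the last from 2 reads, with a counting interval of 9.38 to 14.28 for ileum over duodenum. Osta was at 1056 RPKM in ileal, 180 in jejunal and 129 in duodenal villi, and Ostb at 729, 135 and 172. Both exporters were thus well expressed in all 3 libraries, unlike the importer. Nr1h4 was at 49.2, 14.7 and 7.73 RPKM in ileal, jejunal and duodenal villi. Nr0b2, a repressor that Nr1h4 can induce, was at 13.9, 7.61 and 13.9 RPKM and so was lowest in jejunum. The efflux pump genes Abcc2 and Abcc3 differed by less than 2-fold.

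The promoters of Fabp6 and Ostb are shown because they carry the inverted repeat that the bile acid receptor is known to bind. Each runs from 250 bases before to 50 after the start of the gene in RefSeq on build GRCm38.p6, and capitals mark matches on either strand to the inverted half-sites GGTNA and TNACC with 1 base between them, a motif chosen with the values known. Fabp6 lies at chr11:43601513-43601812 and Ostb (Slc51b) at chr9:65422724-65423023, both on the reverse strand.
Fabp6: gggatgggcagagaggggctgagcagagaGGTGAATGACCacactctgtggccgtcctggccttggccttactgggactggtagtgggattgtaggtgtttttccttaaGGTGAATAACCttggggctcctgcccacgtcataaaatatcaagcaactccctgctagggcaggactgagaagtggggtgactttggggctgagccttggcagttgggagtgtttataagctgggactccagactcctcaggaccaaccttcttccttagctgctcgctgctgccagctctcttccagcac
Slc51b: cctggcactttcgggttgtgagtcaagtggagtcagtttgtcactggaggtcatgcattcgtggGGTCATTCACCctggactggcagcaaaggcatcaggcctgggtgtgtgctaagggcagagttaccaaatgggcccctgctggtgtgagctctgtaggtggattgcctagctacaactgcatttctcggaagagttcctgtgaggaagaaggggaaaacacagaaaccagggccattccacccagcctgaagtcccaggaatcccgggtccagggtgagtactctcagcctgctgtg
The Fabp6 matches lay at -221 to -211 and -141 to -131 from the start, and the Slc51b match at -186 to -176. Of 32851 RefSeq promoters 86 (0.262%) held at least 1 match and 1, that of Fabp6, held 2. Among the bile acid genes 8 had a promoter in the table and 2 of these held a match.

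Genes of fatty acid-binding proteins differed in direction along the gut, and Fabp2 was above Fabp1 in every villus library. Of the 9 family members 5 were expressed in villi, and 3 of these were higher and 1 lower by 2-fold or more in ileal than in duodenal villi, with a median log2 ratio of 1.59. Fabp2, the intestinal fatty acid carrier, was at 12604 RPKM in ileal, 7034 in jejunal and 4183 in duodenal villi. Fabp1 (mm9 chromosome 6, 71149881 to 71155016) had a log2 ratio of -4.39 for ileum and -1.0 for jejunum, each over duodenum. Fabp4, the carrier of fat cells and small vessels, was at 16.3, 3.90 and 1.67 RPKM in ileal, jejunal and duodenal villi, and Fabp5 at 3.01, 3.69 and 2.54. Fabp3, Fabp7, Fabp9 and Fabp12 were below 1 RPKM in every villus library. The family as a whole took 2.34% of the reads in genes in ileal villi, 0.776% in jejunal and 0.566% in duodenal villi, and Fabp6 with Fabp2 made up nearly all of the ileal share.

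Of the apolipoproteins of chylomicrons, the particles that export dietary fat, Apoa4, Apoc2 and Apoc3 were lowest in ileal villi and Apoa1 was lowest in jejunal villi. Apoa4 was at 2368 RPKM in ileal, 17208 in jejunal and 46871 in duodenal villi, and was the most abundant transcript of the list in duodenum. Apoc2 was at 381, 1907 and 7072 RPKM and Apoc3 at 931, 4538 and 11270 RPKM in ileal, jejunal and duodenal villi. Apoa1, the main protein of high-density lipoprotein, stayed within 2-fold, at 30391, 25264 and 43188 RPKM. Together these 4 genes took 4.56% of reads in genes in ileal villi (Wilson interval 4.55% to 4.58%), 8.43% in jejunal villi (8.41% to 8.45%) and 17.9% in duodenal villi. Of the 10 chylomicron genes 1 was higher and 4 were lower by 2-fold or more in ileum, with a median of -0.68, and 1 was higher and 3 lower in jejunum, with a median of -0.73. Apob, the structural protein of the particle, was at 113, 132 and 253 RPKM, and Mttp, which loads it with fat, at 294, 440 and 383 in ileal, jejunal and duodenal villi. The higher gene was Pdia4, a protein-folding enzyme of the secretory pathway, at 23.3, 14.6 and 5.63 RPKM.

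Other steps of fat absorption differed less. Of 8 genes of fatty acid uptake 1, Fabp2, was higher and 3 were lower in ileum, Fabp1, Slc27a2 and Cd36. Cd36, a fatty acid receptor, was at 3.64 RPKM in ileal, 20.7 in jejunal and 18.9 in duodenal villi. The transporter Slc27a4 was at 462, 467 and 524 RPKM. Triglyceride synthesis had 1 higher and 1 lower of 11, with a median of -0.04. Mogat2, which starts resynthesis of triglyceride in enterocytes, was at 589, 461 and 365 RPKM and Dgat1, which ends it, at 420, 440 and 510 RPKM in ileal, jejunal and duodenal villi. The phospholipase gene Plb1, one of the genes with the highest ratios, was at 213 RPKM in ileal, 43.1 in jejunal and 0.393 in duodenal villi, and Enpp7, an alkaline sphingomyelinase, at 784, 737 and 205.

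The promoters of Fabp1 and Apoc2 are shown as genes of the proximal pattern that hold a direct repeat of the kind bound by nuclear receptors of fat metabolism. Capitals mark matches on either strand to the half-sites AGGNCA and AGGTCA with 1 base between them, again a motif chosen with the values known. Fabp1 is at chr6:71199629-71199928 on the forward and Apoc2 at chr7:19677892-19678191 on the reverse strand of GRCm38.p6.
Fabp1: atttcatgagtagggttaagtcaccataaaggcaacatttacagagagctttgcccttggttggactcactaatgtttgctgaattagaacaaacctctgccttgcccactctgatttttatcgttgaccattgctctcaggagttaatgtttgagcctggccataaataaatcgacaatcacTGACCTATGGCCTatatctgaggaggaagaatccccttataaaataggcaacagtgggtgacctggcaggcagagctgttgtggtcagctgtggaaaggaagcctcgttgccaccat
Apoc2: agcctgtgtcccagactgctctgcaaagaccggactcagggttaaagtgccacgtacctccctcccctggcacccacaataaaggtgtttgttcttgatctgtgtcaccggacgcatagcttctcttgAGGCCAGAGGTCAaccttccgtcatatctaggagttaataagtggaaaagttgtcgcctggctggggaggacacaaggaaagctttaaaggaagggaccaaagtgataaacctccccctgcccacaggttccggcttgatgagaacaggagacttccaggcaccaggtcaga
The Fabp1 match lay at -67 to -55 and the Apoc2 match at -122 to -110, and 31 of the 32851 promoters (0.0944%) held one. Of 10 promoters of chylomicron genes 1 held a match, as did 1 of 9 of fatty acid uptake genes.

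Cholesterol synthesis was higher toward the ileum along nearly its whole pathway. Of 14 tested genes 13 were 2-fold or more higher in ileal than in duodenal villi and 0 lower, with a median log2 ratio of 2.20, against 10.7% of all genes. In jejunum 6 were higher and 0 lower, with a median of 0.97. The ileal count was 12 when scaled to the median gene, to epithelial genes or to reads outside the abundant genes, while the jejunal count was 3 on the scale of the median gene or of epithelial genes and 9 with equal RPKM sums. Sqle, the squalene epoxidase, was at 31.8 RPKM in ileal, 4.46 in jejunal and 1.14 in duodenal villi. Fdft1, which makes squalene, was at 34.6, 8.81 and 3.52 RPKM, and Cyp51, which removes a methyl group from lanosterol, at 29.8, 6.10 and 2.26. Srebf2, the transcription factor that drives the pathway, was at 33.2, 16.7 and 7.10 RPKM in ileal, jejunal and duodenal villi. Insig1, a brake on the pathway, was the tested member under 2-fold, at 18.8, 13.2 and 13.2 RPKM.

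Receptors and pumps of cholesterol had no common direction. Of 8 genes of cholesterol uptake and efflux 1 was higher and 1 lower in ileum, with a median of 0.16, which was below 0 under 3 of the 4 other scalings. Scarb1, the receptor for high-density lipoprotein, was at 0.462 RPKM in ileal, 4.60 in jejunal and 31.5 in duodenal villi, a log2 ratio of -4.47 for ileum over duodenum. Npc1l1, the brush border importer of cholesterol, was at 341, 385 and 239 RPKM in ileal, jejunal and duodenal villi, and its counterparts Abcg5 and Abcg8 stayed within 2-fold.

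**Figure D3:**
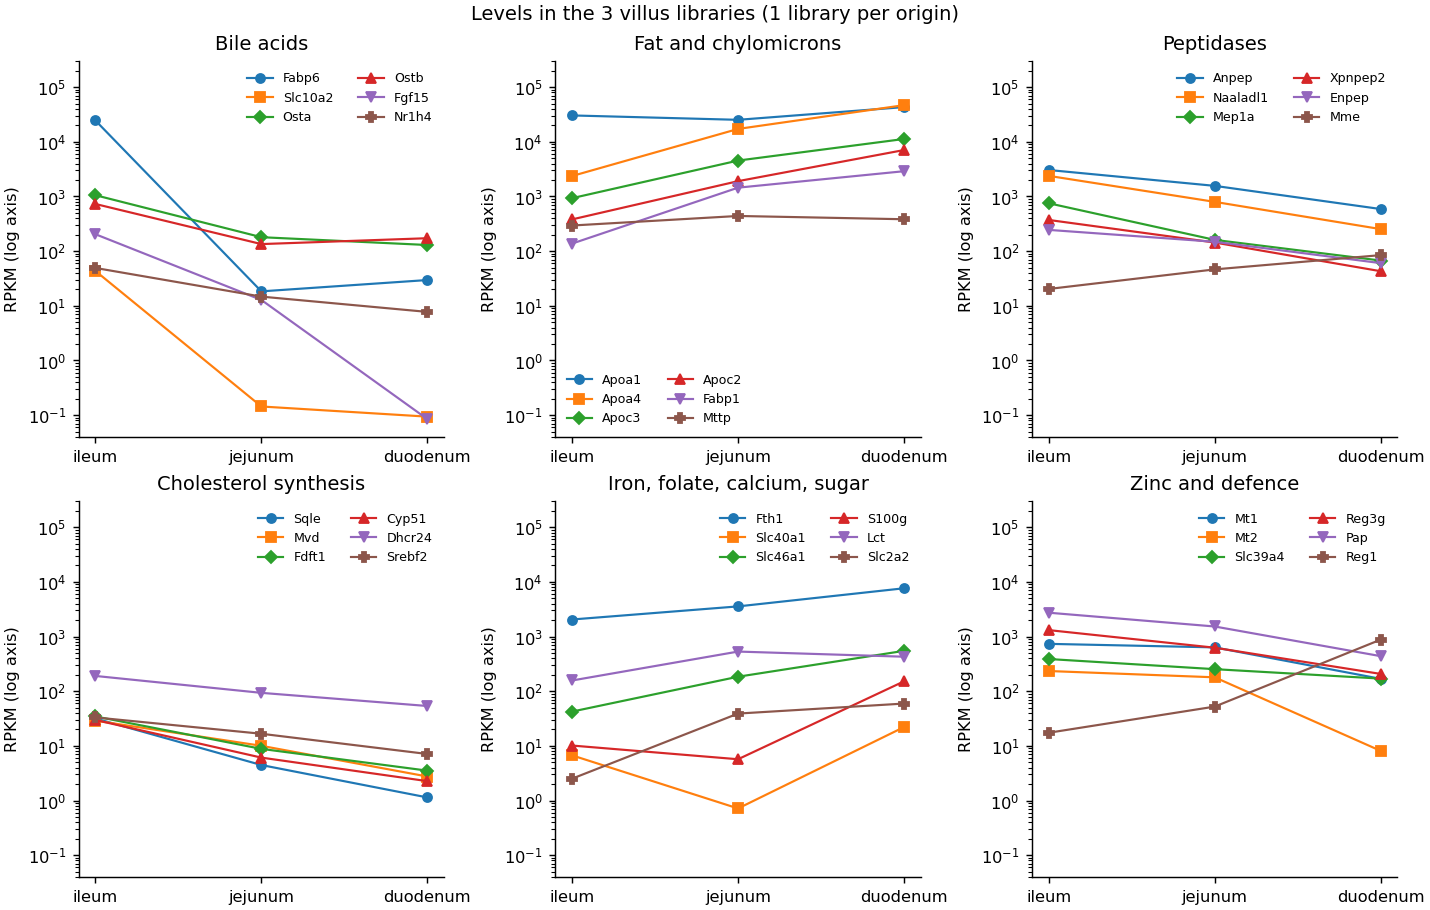
RPKM (log axis) of 36 genes in ileal, jejunal and duodenal villi, 1 library each, in panels by function. Lines join the libraries of 1 gene. Fabp6 drops between ileum (24599 RPKM) and jejunum (18.4 RPKM), cholesterol synthesis genes grade from ileum to duodenum, and Slc40a1 is lowest in jejunum (0.716 RPKM).

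Brush border peptidases split into an ileal and a proximal set. Of 14 tested genes 6 were higher and 3 lower by 2-fold or more in ileal than in duodenal villi, with a median of 0.67. Anpep, aminopeptidase N, was at 3051 RPKM in ileal, 1565 in jejunal and 589 in duodenal villi, and Naaladl1, a peptidase of the ileal brush border, at 2383, 797 and 253. Xpnpep2, which cuts before proline, was at 372, 144 and 42.9 RPKM in ileal, jejunal and duodenal villi. Mep1a, at a log2 ratio of 3.46, stood above Mep1b, its partner subunit, at 0.89 (521, 407 and 280 RPKM in ileal, jejunal and duodenal villi). The lower genes were Mme (neprilysin) at 20.3, 46.3 and 84.5 RPKM, Ace, the angiotensin-converting enzyme, at 241, 681 and 552 RPKM, and Prss7. Prss7 encodes enteropeptidase, which activates pancreatic trypsinogen, and was listed at 0 in ileal villi, at 0.0210 RPKM in jejunal and at 4.00 RPKM in duodenal villi.

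Transporters of peptides and amino acids were mostly within 2-fold. Of 12 genes 2 were higher and 1 lower in ileum, against 10.7% higher and 3.33% lower among all genes. The median was 0.55 and stayed above 0 under all 4 other scalings. Slc15a1, the peptide transporter, was at 217, 193 and 149 RPKM in ileal, jejunal and duodenal villi, and Slc6a19, the main carrier of neutral amino acids, at 386, 292 and 206. The greatest ratio was that of Slc1a1, a glutamate and aspartate carrier, at 22.0 RPKM in ileal, 5.50 in jejunal and 0.247 in duodenal villi. Slc16a10, which exports aromatic amino acids, was highest in jejunum, at 16.9, 27.0 and 12.8 RPKM.

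Several sugar genes were lower in ileal villi. Of 6 genes of carbohydrate digestion and transport 0 were higher and 3 lower, with a median of -1.03, while jejunal villi had 0 in each direction and a median of -0.13, which turned to 0.12 with equal RPKM sums. Slc2a2, the basolateral glucose transporter, was at 2.51 RPKM in ileal, 39.0 in jejunal and 59.5 in duodenal villi. Lct, lactase, was at 157, 531 and 428 RPKM and Treh, trehalase, at 172, 286 and 534. Slc5a1, the sodium-coupled glucose importer, was within 2-fold at 175, 230 and 269 RPKM, and so was Slc2a5, the fructose importer, at 31.2, 48.4 and 47.5. Of 7 genes of fructose and glucose metabolism 0 passed 2-fold in ileum, with a median of -0.61, and Pck1, a key enzyme of glucose synthesis, was highest in jejunum, at 42.8, 138 and 60.3 RPKM in ileal, jejunal and duodenal villi.

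Several genes of iron uptake and storage and the folate carrier were highest in duodenal villi. Of 9 genes of the iron list, which holds the folate and haem carrier Slc46a1, 0 were higher and 5 lower in ileal villi (median -1.03), and 0 were higher and 5 lower in jejunal villi (median -1.10), against 3.33% and 1.46% of all genes lower. Fth1, the heavy chain of the iron store ferritin, was at 2052 RPKM in ileal, 3563 in jejunal and 7646 in duodenal villi, and Cybrd1, the brush border iron reductase, at 0.132, 0.250 and 3.67. Slc40a1, the iron exporter ferroportin, was at 6.71, 0.716 and 22.1 RPKM and thus lowest in jejunum. Slc11a2, the iron importer, and Heph, the oxidase that acts with the exporter, were within 2-fold, at 16, 13.6 and 12.1 RPKM and at 33.2, 35.3 and 34.8 RPKM. Slc46a1, the folate transporter, was at 42.4 RPKM in ileal, 184 in jejunal and 548 in duodenal villi. Of 3 tested calcium genes 0 were higher and 1 lower in ileum, with a median of 0.18 that was below 0 on 3 of the 4 other scales. S100g, the calcium-binding calbindin of enterocytes, was the lower one, at 10.1, 5.69 and 152 RPKM. The calcium pump Atp2b1 was at 12.9, 6.21 and 11.3 RPKM, and Vdr, the vitamin D receptor, at 116, 93.4 and 64.9 RPKM in ileal, jejunal and duodenal villi. Akp3, an intestinal alkaline phosphatase, shared this profile, at 9.87, 4.88 and 394 RPKM, while the related Alpi was at 633, 573 and 762. Genes of vitamin B12 uptake had 0 of 5 past 2-fold, with a median of 0.72 for ileum over duodenum. Cubn, part of the receptor for the vitamin, was at 58.4, 40.1 and 32.6 RPKM in ileal, jejunal and duodenal villi.

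Most zinc genes were higher in ileal than in duodenal villi. Mt2, a metallothionein that binds zinc and copper, was at 234 RPKM in ileal, 180 in jejunal and 8.10 in duodenal villi, with 1578, 1279 and 59 reads. Mt1 was at 735, 634 and 169 RPKM. Both stood close together in ileal and jejunal villi and lower in duodenal villi. Of 6 genes of this list 5 were higher and 1, Slc30a10, lower in ileum (median 1.56), and 3 were higher and 1 lower in jejunum (median 0.92). On the epithelial scale 3 were higher and 1 lower in ileum. Slc39a4, the zinc importer of the brush border, was at 388, 253 and 170 RPKM, and Slc30a1, a zinc exporter, at 10.9, 5.02 and 2.79 RPKM in ileal, jejunal and duodenal villi, both graded along the gut. The promoter of Mt2 is shown because metallothionein promoters carry metal response elements. It lies at chr8:94172368-94172667 on the forward strand of GRCm38.p6, and capitals mark matches to TGCNCNC on either strand.
Mt2: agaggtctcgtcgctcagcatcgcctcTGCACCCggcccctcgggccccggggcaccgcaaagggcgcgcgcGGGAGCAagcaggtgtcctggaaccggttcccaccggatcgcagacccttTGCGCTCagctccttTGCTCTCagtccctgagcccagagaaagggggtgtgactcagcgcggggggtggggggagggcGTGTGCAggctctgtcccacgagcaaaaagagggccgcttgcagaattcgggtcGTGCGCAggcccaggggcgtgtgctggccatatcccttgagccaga
It held 6 matches to this search pattern, and 50 of the 32851 promoters (0.152%) held 6 or more, whereas 51.0% held at least 1. The pattern is loose, and whether each match is a metal response element was not tested. The first began at -223 and the last at 5, counted from the start of the gene.

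Genes of vitamin A and drug metabolism differed in both directions. Of 10 retinoid genes 2 were higher and 5 lower in ileal villi, with a median of -0.76. Rbp2, the retinol carrier of enterocytes, was at 993 RPKM in ileal, 3098 in jejunal and 5794 in duodenal villi, and Bcmo1 (now Bco1), which cleaves beta-carotene, at 3.80, 12.2 and 28.0. Isx, the repressor of Bcmo1 and Scarb1, ran against both, at 149, 57.2 and 37.9 RPKM in ileal, jejunal and duodenal villi. The alcohol dehydrogenase Adh6a was at 35.9, 224 and 407 RPKM. Of 16 cytochromes P450 3 were higher and 6 lower in ileum, with a median of -0.68. Cyp3a13 was at 90.3, 145 and 430 RPKM and Cyp3a11 at 133, 148 and 343, whereas Cyp2c55 was at 93.5, 14.4 and 17.8 and Cyp4f40 at 64.9, 30.9 and 8.37. Of 22 genes of conjugation and efflux 3 were higher, among them the drug pumps Abcb1a (25.4, 6.04 and 8.32 RPKM in ileal, jejunal and duodenal villi) and Abcg2 (61.0, 27.6 and 24.3), and 5 were lower, with a median of -0.19 and against 10.7% higher and 3.33% lower among all genes.

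Nitrogen metabolism held opposite groups. Of 8 genes of arginine and urea synthesis 5 were higher and 0 lower in ileal villi (median 1.18), and likewise 5 and 0 in jejunal villi (median 1.13). In ileum this count was 1 on the epithelial scale and 2 on the scale of the median gene. Oat, which makes ornithine, was at 385 RPKM in ileal, 551 in jejunal and 136 in duodenal villi, and Otc, which turns it into citrulline, at 30.5, 28.1 and 12.3. Nucleotide salvage had 0 higher and 4 lower of 7 in ileum, with a median of -1.08. Ada, adenosine deaminase, was at 246 RPKM in ileal, 552 in jejunal and 1237 in duodenal villi, and Slc28a2, a carrier of purine nucleosides, at 10.5, 37.1 and 74.5.

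**Figure D4:**
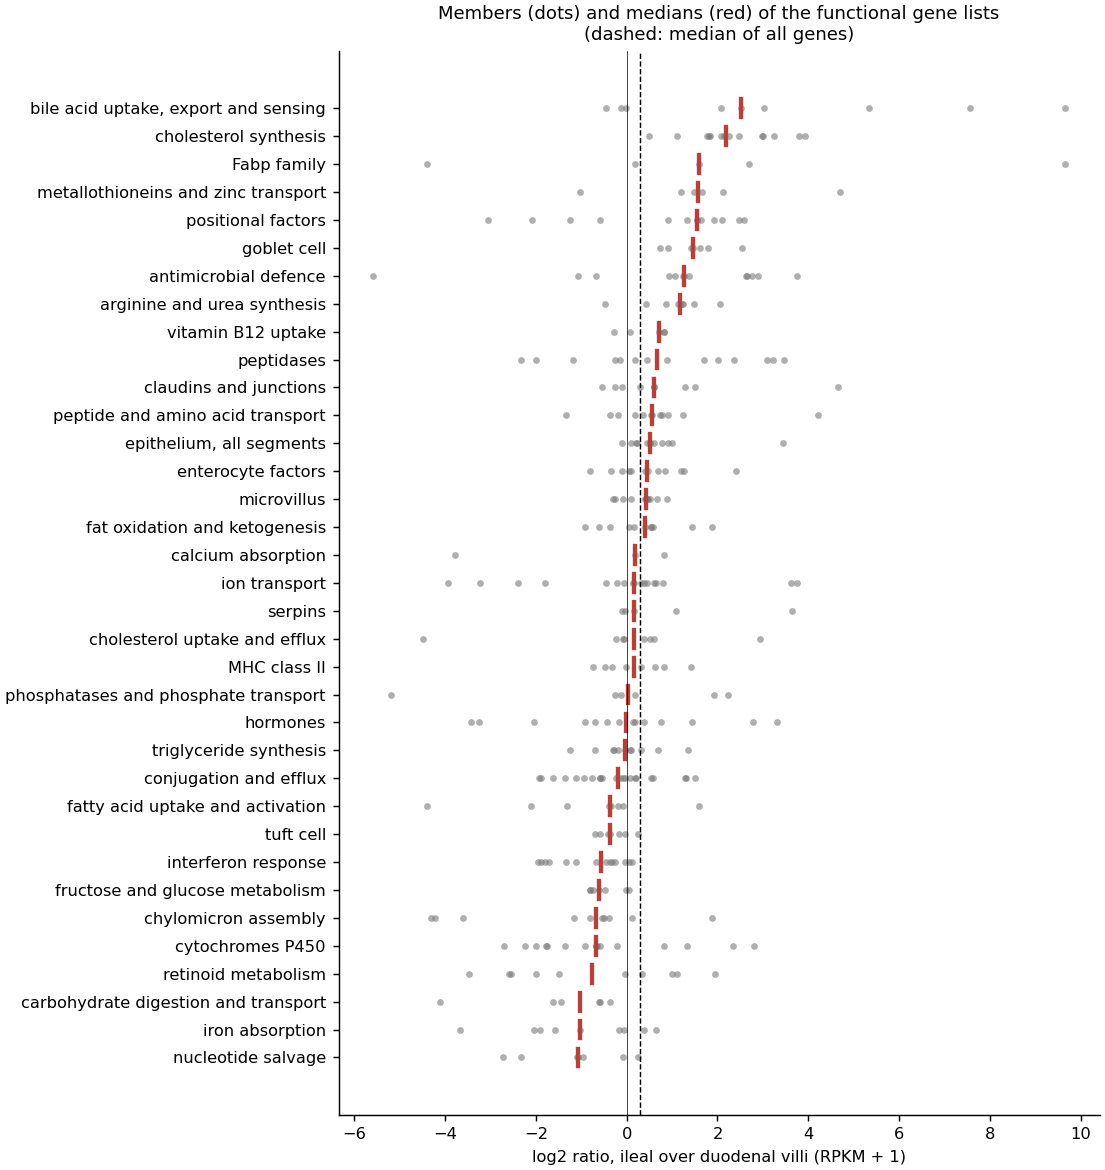
The log2 ratio of ileal over duodenal villi (RPKM + 1) for the members (grey dots) and medians (red ticks) of the functional gene lists, ordered by median, 1 library per origin. Bile acid genes (median 2.52) and cholesterol synthesis (2.20) lie at the top, and iron absorption (-1.03) and nucleotide salvage (-1.08) at the bottom, with the dashed line at the median gene (0.29).

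Most antimicrobial genes were higher in ileal villi. Of 13 antimicrobial genes 9 were higher and 2 lower, with a median of 1.25 (1.38 with Saa1, at 0 in duodenum, set against 3 reads). The count of higher genes was 5 on the epithelial scale. Reg3g, a lectin that kills bacteria, was at 1312 RPKM in ileal, 625 in jejunal and 207 in duodenal villi, and its relative Pap (now Reg3b) at 2732, 1529 and 438. Duoxa2, the maturation factor of the oxidase Duox2, was at 14.4, 2.06 and 0.144 RPKM, and Nos2, the inducible nitric oxide synthase, at 6.68, 0.431 and 0.0383. Reg1, a secreted lectin also made by the pancreas, went the other way, at 17.4 RPKM in ileal, 52.3 in jejunal and 879 in duodenal villi. Of 10 Paneth cell genes 9 were higher in ileal and 9 in jejunal villi, and Defcr20 (now Defa20) was at 437, 67.9 and 3.58 RPKM in ileal, jejunal and duodenal villi. Defensin genes are near copies of each other, so the assignment of their reads is uncertain, and Defcr24 and Defcr6 had identical values.

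Of 14 interferon genes 0 were higher and 6 lower in ileal villi, against 3.33% of all genes lower, with a median of -0.56. Among the 8 that did not reach 2-fold, the antigen peptide transporter Tap1 was at 17.3 RPKM in ileal, 25.6 in jejunal and 15.9 in duodenal villi. Isg15, a ubiquitin-like interferon product, was at 35.3 RPKM in ileal, 43.2 in jejunal and 125 in duodenal villi, and Psmb8, a subunit of the immunoproteasome, at 42.5, 77.0 and 141. T lymphocyte genes went with them, with 0 higher and 10 lower of 13 in ileum and the sums of 115, 225 and 533 RPKM given above, and their part in the interferon values was not tested. Gzma, a protease of cytotoxic lymphocytes, was at 15.7, 47.6 and 109 RPKM, and Cd3e, part of the T cell receptor complex, at 6.09, 11.4 and 17.5 in ileal, jejunal and duodenal villi. MHC class II genes, which present antigen, had 1 higher and 0 lower of 8, and Cd74, their invariant chain, was at 157, 89.9 and 88.2 RPKM.

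Transcription factors of position differed along the villi. Of 13 tested factors 8 were higher and 3 lower in ileal villi, with a median of 1.56. Osr2, a zinc finger factor, was at 116 RPKM in ileal, 46.8 in jejunal and 20.2 in duodenal villi, and the caudal factors Cdx1 and Cdx2 were at 134, 79.3 and 53.0 and at 154, 103 and 51.7. Hoxb9 and Hoxb7, members of the Hox cluster that patterns the body axis, were at 4.98 and 2.80 RPKM in ileal villi and listed at 0 in jejunal and duodenal villi. On the duodenal side Gata4 was at 19.5, 46.2 and 47.3 RPKM in ileal, jejunal and duodenal villi, Onecut2 at 0.0555, 1.29 and 7.75 and Pdx1 at 0.192, 0.243 and 4.04. By 2-fold or more, Gata4 thus differed between ileum and jejunum, Pdx1 between jejunum and duodenum and Onecut2 at both steps. General enterocyte factors varied less, with 3 higher and 0 lower of 12 and a median of 0.44 that was below 0 on the epithelial scale. Hnf4a was at 181, 141 and 112 RPKM in ileal, jejunal and duodenal villi.

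The hormone list also holds other genes of endocrine cells, namely Neurod1, Tph1, Chga and Chgb. Of its 14 genes 3 were higher and 3 lower in ileal villi, against 10.7% higher and 3.33% lower among all genes. Gip, Cck and Ghrl encode hormones of the proximal gut, and Gip was at 30.9 RPKM in ileal, 162 in jejunal and 343 in duodenal villi, Cck at 10.2, 32.9 and 105 and Ghrl at 13.3, 24.9 and 57.8. Pyy, Gcg and Nts encode distal hormones, and Pyy was at 121 RPKM in ileal, 33.9 in jejunal and 11.3 in duodenal villi, Gcg at 16.3, 11 and 1.54 and Nts at 149, 89.4 and 54.4. The other 8 genes of the list did not reach 2-fold between ileum and duodenum. Sct, which encodes the duodenal hormone secretin, was among them, at 391, 194 and 355 RPKM in ileal, jejunal and duodenal villi. Of 7 goblet cell genes 5 were higher and 0 lower in ileum, with a median of 1.46, and Agr2, a folding enzyme for mucins, was at 358, 91.7 and 60.5 RPKM. Tuft cell genes, of the chemosensory cells of the epithelium, had 0 of 7 past 2-fold in either direction.

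Of 17 ion transport genes 2 were higher and 4 lower in ileal villi, against 10.7% higher and 3.33% lower among all genes. Car4, a carbonic anhydrase of the cell surface, was at 83.6 RPKM in ileal, 50.8 in jejunal and 5.29 in duodenal villi, whereas Car2, the cytosolic form, was at 1.2, 12.6 and 32.9, and Slc9a3, a sodium-proton exchanger, at 5.60, 23.3 and 22.1. Of 9 claudin and junction genes 3 were higher and 0 lower in ileum, against 10.7% of all genes higher, and on the epithelial scale it was 1 and 1. Cldn2, a pore-forming claudin, was at 43.2, 2.88 and 0.753 RPKM, Cldn3 at 874, 458 and 359, and Cldn8 at 1.85, 0.265 and 0 in ileal, jejunal and duodenal villi. Slc34a2, a phosphate importer, was at 492, 212 and 103 RPKM in ileal, jejunal and duodenal villi. Among the remaining genes with the highest ratios, Tmigd1, an adhesion protein of enterocytes, was at 440 RPKM in ileal, 11.9 in jejunal and 2.52 in duodenal villi, Suox, sulfite oxidase, at 228, 9.26 and 5.17, and BC026682 (now Fam151a) at 450, 156 and 7.65. Among the lowest, Gm131 (now Cym, chymosin) was at 1.81, 30.1 and 61.2 RPKM, Mbl2, a mannose-binding lectin, at 0.926, 10.4 and 32.5 and Enpp3, an ectonucleotidase, at 11.3, 117 and 206.

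The jejunum was mostly intermediate. Of 1469 genes that spanned 2-fold or more over the 3 libraries, 946 (64.4%) were ordered upward from duodenum to ileum, 270 (18.4%) were ordered downward, 118 were highest in jejunum and 135 lowest there. These patterns were counted without the other scalings. Centred on the median gene, 533 genes were higher and 539 lower in ileal than in duodenal villi, so the upward excess depends on the scale. The greater step lay between jejunum and ileum in 459 of the 946 genes ordered upward and in 147 of the 270 ordered downward. Jejunal villi stood 2-fold or more above both ends in 2 of 9574 genes (0.0209%), Pck1 and LOC100040708. This unnamed locus had 2 reads in ileal, 63 in jejunal and 4 in duodenal villi, and Pck1 the values above. They stood 2-fold or more below both ends in 12 genes (0.125%). Slc13a1, a sulfate importer, was at 93.1 RPKM in ileal, 5.60 in jejunal and 23.8 in duodenal villi, and Slc40a1 and the kinase gene Sgk2 (16.4, 3.53 and 11.3 RPKM) had the same form.

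The ileal and duodenal differences of villi were set beside those of crypts and organoids, which the villus ratios do not use. Genes were counted where both same-numbered crypt pairs differed by 2-fold or more in the same direction. Of the 1022 genes higher in ileal villi 116 were also higher in ileal crypts, which is 11.4% of the villus genes and 72.0% of the 161 such crypt genes, where 1.68% of all genes tested were. Of the 319 lower genes 38 were also lower in ileal crypts, which is 11.9% of the villus genes and 60.3% of the 63 crypt genes, against 0.658% of all genes. In organoids 86 of the higher genes (8.41%) and 44 of the lower genes (13.8%) kept a 2-fold difference of the same direction, against 2.36% and 1.51% of all genes. The shared counts were 47 higher and 19 lower genes over villi, crypts and organoids. Fabp6, Fgf15, Slc10a2, Ostb, Tmigd1, Naaladl1, Reg3g, Pyy, Osr2 and Hoxb9 were among the first, and Fabp1, Reg1, Scarb1, Rbp2, Gip, Ghrl, Gata4 and Onecut2 among the second.

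Genes called in replicated crypts had the same direction in villi with few exceptions. By limma over crypts and villi, 4 of 10566 genes (0.0379%) differed between ileal and duodenal crypts, Hoxb9, Hoxb8 and Hoxb6 higher and Onecut2 lower in ileum, and all 4 were 2-fold or more the same way in villi. Leaving out either duodenal crypt library or ileal replicate 2 left 0 calls. With the replicate number as a block 33 genes (0.312%) passed. Of these 29 were tested in villi, where 10.7% of all genes were 2-fold or more higher and 3.33% lower in ileum. Of the 29 genes 27 were 2-fold or more the same way and 1, Dmbt1, the other way. The 3 regional markers were among them, with blocked limma adjusted p-values in crypts of 0.0237 for Fabp6, 0.0108 for Fabp1 and 0.0489 for Mep1a, and adjusted p-values of 0.13, 1 and 1 without the block. Fabp6 was at 1544 and 14643 RPKM in the 2 ileal crypt libraries and 11.8 and 5.48 RPKM in the 2 duodenal ones, and Fabp1 at 1.59 and 19.4 RPKM in ileal and 72.9 and 1133 RPKM in duodenal crypts. The ileal and duodenal values of both genes did not overlap. With 2 libraries per group this adds no support, since the share of all genes so separated was not counted. Whether the replicates are different animals is not stated in the labels, so these p-values measure only the spread between these samples, which may be technical. The crypt libraries also differed in villus genes, with sums of the microvillus list from 579 to 2436 RPKM. How far any villus cells in the crypt preparations add to the shared genes was not tested.

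Calls of a regional difference that differed between villi and crypts appeared only without the expression filter. The filter keeps genes at 1 RPKM or more in at least 2 of the crypt and villus libraries. How many of the unfiltered calls were genes below it was not counted. By limma, with single villus libraries assumed to vary like crypt libraries, 0 of 10566 genes (0.0%) passed for the ileum-duodenum difference and 0 (0.0%) for the jejunum-duodenum difference. Unadjusted p-values under 0.05 numbered 244 and 99. With the replicate block the counts were also 0, with 612 and 353 unadjusted, and limma-voom on recovered reads gave 0 with 311 and 124. Without an expression filter, on 15687 genes, limma called 304 genes for the ileum-duodenum and 174 for the jejunum-duodenum difference. For Mt2 the villus difference of 4.69 stood against -0.79 and -0.50 in the 2 crypt pairs (limma difference 5.34, SE 1.11, adjusted p = 0.9998, and 0.3269 with the block). Mt2 was at 106 and 78.9 RPKM in ileal crypts and 184 and 112 RPKM in duodenal crypts. Krt19, a keratin of the epithelium, was at 2026, 850 and 187 RPKM in ileal, jejunal and duodenal villi, but at 1626 and 4066 RPKM in ileal and 1086 and 2299 RPKM in duodenal crypts. Cldn2 was at 56.6 and 86.4 RPKM in ileal and 32.7 and 83.0 RPKM in duodenal crypts. Both genes were lower in duodenal villi than in every crypt library named here. Plb1, at 2.0 and 5.98 RPKM in ileal crypts and 0.196 and 0.0219 RPKM in duodenal crypts, kept the direction of villi at a lower level.

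**Figure D5:**
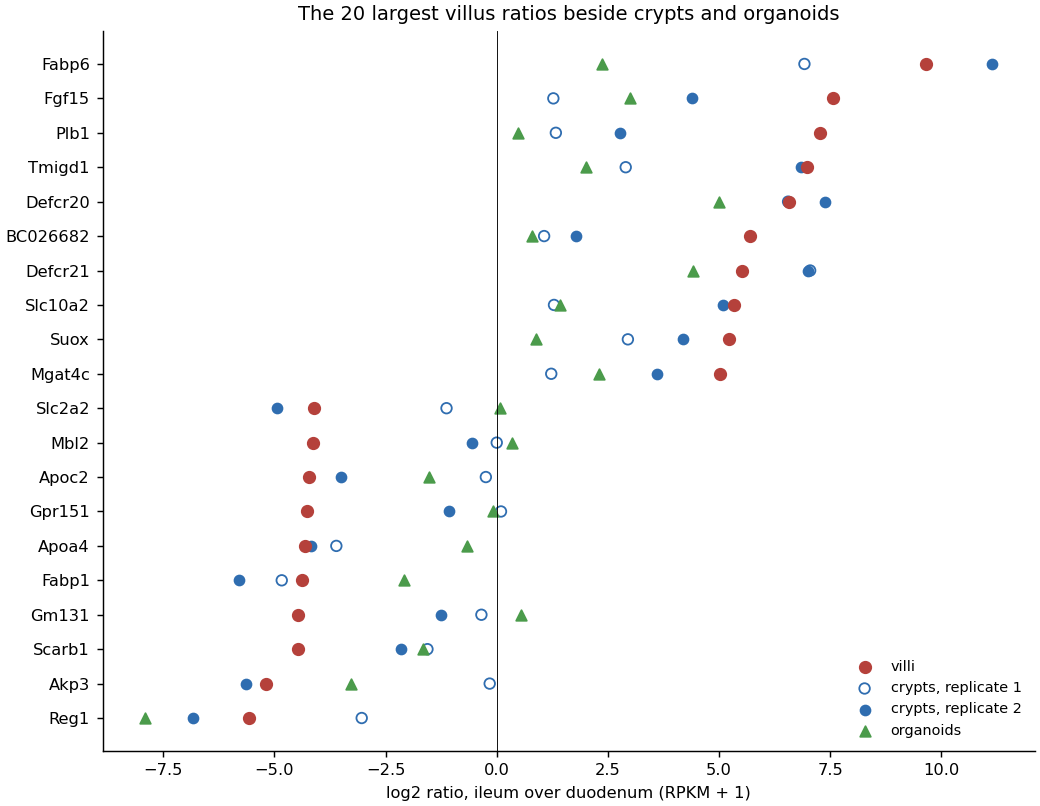
The log2 ratio of ileum over duodenum (RPKM + 1) for the 10 highest and 10 lowest villus genes in villi (red), in the crypt pairs of replicate 1 (open) and replicate 2 (filled blue) and in organoids (green). Fabp6 is at 9.65 in villi, 6.92 and 11.14 in crypts and 2.36 in organoids, while Mbl2 at -4.12 in villi is at 0.00 and -0.55 in crypts.

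Organoids kept part of these differences in culture. Fabp6 was at 4.12 RPKM in ileal, 0.556 in jejunal and 0 in duodenal organoids, far below its level in ileal villi. Reg1 was at 38.9, 219 and 9598 RPKM and Pyy at 47.5, 3.35 and 1.48 RPKM in ileal, jejunal and duodenal organoids, so both had the order seen in villi. Apoa4, at 76.4, 142 and 122 RPKM, and Mep1a, at 18.7, 18.4 and 15.8 RPKM, were within 2-fold between ileal and duodenal organoids. Each organoid origin is also 1 library, so these values have no replicate check.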

How the data were processed

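Poly(A) RNA of the 12 libraries was sequenced on the SOLiD 4 system with 50-base reads, per the labels' protocols. BWA and build mm9 are named in the submitters' processing notes. No source at hand states the gene models, the counting rule or whether it used strand. The deposited table of the authors holds RPKM for 21247 transcripts with 19012 symbols. Ranks and ratios here use 1 row per symbol, that of the greatest exon length. The RPKM values were whole multiples of 1 read for at least 99.9671% of values in each library (tolerance 0.02 reads), which gave read numbers and library totals. Depth sets a counting error, intervals cover counting error only, and reads without molecular identifiers are not independent molecules.

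Ratios are differences of log2(RPKM + 1). A gene was tested if it reached 1 RPKM in 1 of the villus libraries, and a difference was called at an absolute log2 value of 1. This is a rule of size and no test. The members and gene lists were chosen with earlier results of these data known. Genes named are the markers, the highest and lowest ratios per contrast and pattern and members of the lists. Krt19, Cldn2, Plb1 and the other single genes outside these, and the promoter motifs, were chosen after their values were seen. Of 528 list entries 516 matched the table. Single values of some list members are not reported here.

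The difference between villi and crypts used limma 3.58.1 in R 4.3.3 on log2(RPKM + 1) of 6 crypt and 3 villus libraries, with a mean per tissue and origin, 3 residual degrees of freedom and Benjamini-Hochberg adjustment at 0.05. Same-numbered crypt libraries deviated together from their group means, with correlations of 0.413 for duodenum and jejunum, 0.494 for duodenum and ileum and 0.790 for jejunum and ileum, so a fit with the replicate number as a block was also made. The alternatives were the pseudocount, the expression filter, 4 other scalings, the 4-fold limit, the transcript row, quantile normalization, the block and leaving out each crypt library. Scaling outside 5 abundant genes and limma-voom on recovered reads were added after seeing the data. Promoters are from RefSeq on GRCm38.p6 (5 printed, 250 bases before to 50 after the start) and were not converted to mm9. Tables were made with Python 3.11.15, pandas 2.3.3 and numpy 2.4.6, and figures with matplotlib 3.10.9.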

Additional observations from a re-analysis of the deposited data

Results flagged for a closer look

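Some genes had a villus difference past 2-fold against both crypt pairs past 2-fold in the other direction. Of 9574 genes tested, these were 2 higher and 1 lower in ileal than in duodenal villi. For jejunum over duodenum it was 1 higher and 1 lower. The 3 genes below are shown, in 4 contrasts, and the other gene higher in ileal villi is not reported here. None of these differences between tissues passed by limma with the expression filter, and each villus value is from single libraries.

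Reg4, a secreted lectin of goblet and endocrine cells, had a log2 ratio of ileum over duodenum of -1.87 in villi (51.7 RPKM in ileal, 127 in jejunal and 192 in duodenal villi). In crypts it was at 1983 and 564 RPKM in ileum and 615 and 167 RPKM in duodenum, with pair ratios of 1.69 and 1.75. The limma difference of villi minus crypts was -3.59 (SE 1.61, adjusted p = 0.9998, and 0.444 with the replicate block).

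Dmbt1, a secreted scavenger receptor of mucosal surfaces, had 1.25 for ileum and 1.32 for jejunum, each over duodenum (15.5, 16.3 and 5.93 RPKM in ileal, jejunal and duodenal villi). Its crypts were at 53.6 and 104 RPKM in ileum, 128 and 186 RPKM in jejunum and 355 and 751 RPKM in duodenum. Pair ratios were -2.71 and -2.83 for ileum and -1.46 and -2.01 for jejunum. The limma difference for ileum was 4.02 (SE 1.02, adjusted p = 0.9998, and 0.327 with the block) and for jejunum 3.06 (SE 1.02, adjusted p = 0.999). S100a11, a calcium-binding protein, had -1.28 for jejunum over duodenum in villi (21.7 RPKM in jejunal and 54.2 RPKM in duodenal villi). Crypts were at 97.4 and 170 RPKM in jejunum and 36.2 and 61.9 RPKM in duodenum, with pair ratios of 1.40 and 1.45 and a limma difference of -2.71 (SE 1.23, adjusted p = 0.999, and 0.991 with the block).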

How the results depend on the processing

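No villus ratio of a named gene past 2-fold changed sign under the alternatives run. For the pseudocounts, filters and scalings this outcome was set beforehand, so it is no check of the ratios. A pseudocount or an expression filter cannot change the sign of a ratio. The epithelial scale, for example, moved log2 ratios of ileum over duodenum by 0.52, which is less than the limit of 1. Group medians close to that of all genes did change sign with the scaling, as for MHC class II genes (0.15, and -0.37 on the epithelial scale) and the microvillus genes (0.43, and -0.09). Counts of genes past the size limit are given for ileum over duodenum, jejunum over duodenum and ileum over jejunum in villi. They were 2082, 1027 and 799 with a pseudocount of 0.1, 578, 168 and 241 with a pseudocount of 5, and 241, 42 and 84 at the 4-fold limit, all against 1341, 451 and 457. With equal RPKM sums jejunum over duodenum had 723 genes, 647 higher and 76 lower. The other scalings gave 1072 to 1277, 398 to 446 and 416 to 570 genes, but changed the split between higher and lower ones as given in the report. The limma test of villi against crypts without an expression filter, on 15687 genes, gave 304 calls for ileum-duodenum and 174 for jejunum-duodenum. For crypts, ileum against duodenum, limma gave 4 calls, 1 with a pseudocount of 0.1, 2 without a filter and 0 by limma-voom on recovered reads (411 unadjusted), an alternative chosen after seeing the data. Leaving out 1 crypt library gave 0 to 4, with 0 without duodenum replicate 1 or 2 or ileum replicate 2 and 3 without ileum replicate 1. With the replicate block, which pairs same-numbered libraries, crypts gave 33 calls. The block changed no call of villi against crypts, which stayed at 0. The cause of these differences was not tested. Counting error is small for abundant genes but wide below about 10 reads, and a single library per origin gives no measure of spread between animals.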
